A study of Sus scrofa with 9 samples.

Results

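Oxidative phosphorylation genes are described here in the aorta of Tibetan minipigs, a small pig breed, on a regular or a high-fat/cholesterol (HFC) diet. The genes were taken from the KEGG annotation in the deposited table, which assigned the term to 130 of 21357 genes. Genes whose name begins with ATP6 or TCIRG were dropped (21 genes), which removes the vacuolar proton pump (V-ATPase) of lysosomes, and genes with a mean below 0.1 FPKM over the 9 libraries were dropped as well (6 genes). FPKM is a fragment count scaled to transcript length and to library size. This left 103 members, 96 of them in complexes I to V, and all 103 passed the same FPKM limit in every comparison. Complex I had 44 members, complex II 4, complex III 10, complex IV 23 and complex V 15, with COX10, COX11, COX15 and COX17, which help to assemble complex IV, counted in it. Of the 103 members, 12 are encoded by mitochondrial DNA and 91 by nuclear chromosomes. The other 7 members are the pyrophosphatases PPA1, PPA2 and LHPP, the gastric proton pump subunit ATP4A, and ATP6V0E1, ATP6V1E1 and ATP6V1G2, V-ATPase subunits that the table leaves without a name. The rule on names also removed 1 respiratory gene, the mitochondrially encoded ATP6 of complex V. The genes removed for low expression were COX8C, COX8H and ATP12A, listed at 0 in every library, and ATP4B, COX7B2 and COX6B2, with means of 0.00473 to 0.0118 FPKM. The nearest members inside the limit were ATP4A at 0.197 FPKM and ATP6V1G2 at 0.685 FPKM.

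The 9 libraries came from the abdominal aorta, 3 per group. NC pigs (normal control) had a normal diet for 24 weeks, H8 pigs, labelled hypercholesterolemia, a high-fat diet for 8 weeks, and H24 pigs, labelled atherosclerosis, a high-fat diet for 24 weeks. The paper describes the NC and atherosclerosis pigs, all male, with 1 library from each of 3 pigs per group chosen at random. H8 is known from the labels, which give no ages. As NC pigs were fed for 24 weeks, H8/NC sets a shorter feeding time as well as a different diet against the controls, and these cannot be told apart. All values come from polyadenylated RNA of whole vessel tissue, in which fewer cells of a type and less RNA per cell cannot be told apart.

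The respiratory chain passes electrons from NADH (complex I) and succinate (complex II) through complex III to oxygen at complex IV, and the proton gradient built on the way drives ATP synthesis by complex V. Complex II, which is also an enzyme of the citric acid cycle, is built from nuclear-encoded subunits alone, while the other complexes join nuclear subunits to a core partly encoded by mitochondrial DNA. Contractile smooth muscle of the arterial wall relies on glycolysis as well as on respiration.

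The libraries held between 44094263 and 75787978 counts, and a floor of 3 counts corresponded to between 0.0396 and 0.068 CPM, the count scaled to library size. No pair of libraries was close to identical, since the smallest chi-square statistic between replicates, divided by its degrees of freedom, was 190.5. H24 replicate 3 stood apart in its cell type markers. The summed FPKM of 11 smooth muscle markers was 12378 to 14768 in NC and 10952 to 14523 in H8, and was 8644, 12463 and 1827 in H24 replicates 1 to 3. None of the 11 was listed at 0, so every library held smooth muscle transcripts, with MYH11 lowest at 218 FPKM in H24 replicate 3. These markers do not show which tissue the smooth muscle came from. The summed FPKM of 14 macrophage markers was 37.0 to 59.1 in NC, 333, 56.4 and 195 in H8 replicates 1 to 3, and 471, 298 and 3321 in H24 replicates 1 to 3, with MARCO listed at 0 in NC. Results are therefore given with and without H24 replicate 3 where it decides a value.

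The members were expressed in the aorta over a wide range, which was set first by the genome that encodes them. The highest was COX1, the catalytic subunit of complex IV, with 5904, 7260 and 4855 FPKM in NC, 5478, 10971 and 6960 FPKM in H8 and 8472, 6668 and 10838 FPKM in H24. The lowest was ATP4A. The 12 mitochondrially encoded members had means of 211 (ND3) to 7490 (COX1) FPKM over the 9 libraries. Among nuclear members, COX4I1, the main regulatory isoform of complex IV subunit 4, had the highest mean at 252 FPKM, followed by ATP5PO, a stalk subunit of ATP synthase, at 141 FPKM. Per-length levels therefore differed between mitochondrial and nuclear subunits of the same complex, and the median over members was 472 FPKM for the 7 mitochondrial and 12.7 FPKM for the 37 nuclear subunits of complex I. The nuclear medians were 35.7 FPKM in complex II, 13.5 FPKM in complex III, 14.8 FPKM in complex IV and 19.4 FPKM in complex V. Within complex I the nuclear subunits spanned a range of 34.3 times, from NDUFA5 at 2.12 FPKM to NDUFB9 at 72.6 FPKM, both accessory subunits. The replicates of NC agreed more closely for nuclear than for mitochondrial members. The median coefficient of variation among the 3 NC libraries was 9.24% to 13.5% for the nuclear members of complexes I to V and 16.9% to 30.2% for the mitochondrial members of complexes I, III, IV and V, lowest for ATP8 of complex V.

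**Figure D1:**
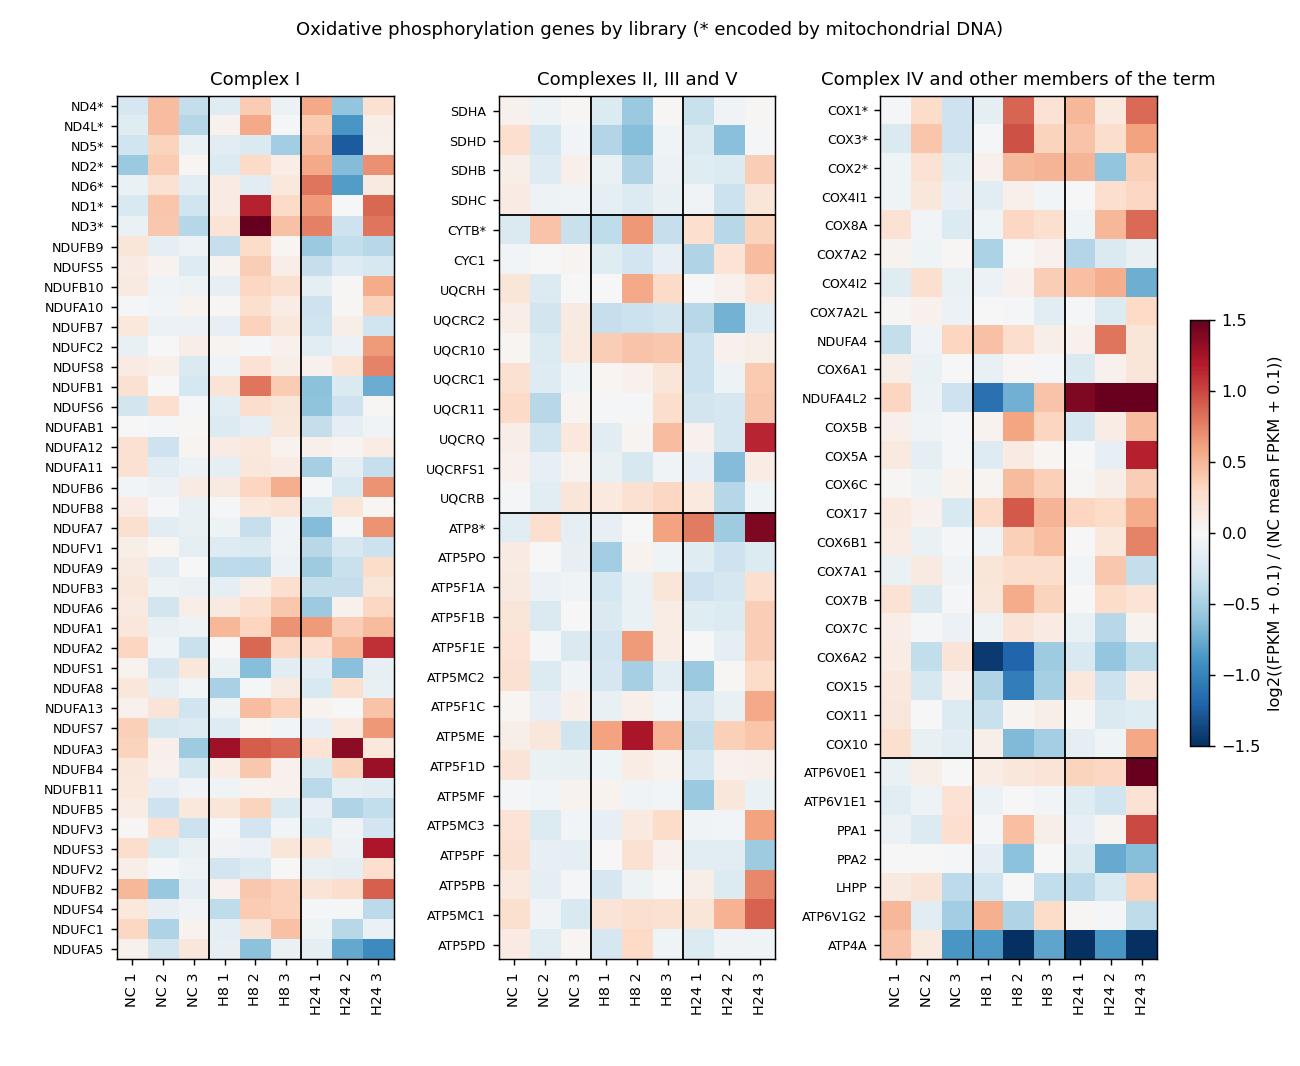
Each row is a member (102 of the 103 are drawn) and each column a library, and the colour is the log2 ratio of FPKM + 0.1 to the NC mean FPKM + 0.1, with the scale ending at 1.5 in either direction. The row of NDUFA4L2 is dark red in the 3 H24 libraries. On another scale than the colours, log2 CPM after TMM (edgeR's scaling between libraries), members above the NC mean were also counted. They number 83 of 103 in H8 replicate 2, 73 in H24 replicate 3 and 31 in H24 replicate 1.

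The H24/NC comparison asks what 24 weeks of the HFC diet did to these genes. The median log2 fold change of the 103 members was 0.01, as was that of all 14828 genes tested (0.01), with 55 members above 0 (50.6% of all genes) and 48 below (49.4%). The exception in complexes I to V was NDUFA4L2, which was 3.11-fold higher in H24. By edgeR's quasi-likelihood test, 1 member was higher and 1 lower (ATP4A) at an unadjusted p under 0.05, or 0.971% of the members in each direction. Over all genes tested, 11.0% were higher and 2.84% lower, which is above the share of the members in each direction. These 2 members also passed the thresholds used in the paper, which ask for an absolute log2 fold change above 1 together with a p under 0.05 before adjustment, against 9.95% of all genes upward and 1.52% downward. None of the 103 members had a Benjamini-Hochberg adjusted p under 0.05 in edgeR, nor had any of the 14828 genes (0.00%). DESeq2 called NDUFA4L2 alone among the members (adjusted p = 2.64e-06), where it called 993 of 14828 genes (6.70%), and limma on log2(FPKM + 0.1) called none (0.0674% of all genes). At an unadjusted p under 0.05, DESeq2 called 2 members higher and 3 lower, against 12.1% and 4.21% of all genes, and limma 2 higher and 1 lower, against 9.50% and 3.38%.

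NDUFA4L2 is a paralog of NDUFA4, the small subunit now assigned to complex IV, and is known as a gene induced by hypoxia. It lies on chromosome 5 of Sscrofa11.1 from 22540484 to 22548009 on the minus strand and overlaps no other gene of the table. It was at 15.2, 11.4 and 9.80 FPKM in NC replicates 1 to 3, at 5.54, 7.31 and 16.3 FPKM in H8 and at 32.3, 43.9 and 38.3 FPKM in H24. Every H24 library lay above every NC and H8 library, while NC and H8 overlapped. The log2 fold change of H24/NC was 1.64 (SE 0.26, n = 3 per group, edgeR unadjusted p = 0.000394, adjusted p = 0.132). In H24/H8 it was 1.82 (SE 0.42, edgeR unadjusted p = 0.00327, adjusted p = 0.336), and in H8/NC -0.20 (SE 0.38, edgeR unadjusted p = 0.620). Leaving out each of the 6 libraries of H24/NC in turn gave log2 fold changes of 1.49 to 1.81. Without H24 replicate 3, the library with few smooth muscle and many macrophage transcripts, the value was 1.64 with an adjusted p of 0.0255 in edgeR, and the difference was as large without it. In that reduced comparison 306 of 14578 genes had an adjusted p under 0.05, against 0 of 14828 with all libraries. In that replicate NDUFA4L2 (38.3 FPKM) lay between the other two H24 libraries.

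NDUFA4 itself was at 21.7, 26.8 and 34.6 FPKM in NC and at 28.8, 48.5 and 31.4 FPKM in H24, with a log2 fold change of 0.37 (SE 0.32, edgeR unadjusted p = 0.280), and these groups overlapped. NDUFA4L2 therefore made up 31.1% ± 9.59 (SD, n = 3) of the summed FPKM of the 2 genes in NC, 22.2% ± 12.0 in H8 and 51.8% ± 3.80 in H24. All 3 H24 shares exceeded all NC shares, a difference of 20.7 percentage points (exact permutation test, two-sided p = 0.1, the smallest that 3 against 3 allows). The share is not independent of the fold change of NDUFA4L2 given above.

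The other alternative isoforms of complex IV gave no call in H24/NC. COX4I2, the isoform of subunit 4 that is also known to respond to low oxygen, was at 31.8, 42.7 and 33.7 FPKM in NC, 33.8, 37.6 and 46.6 FPKM in H8 and 49.6, 52.7 and 21.6 FPKM in H24. In H24 replicates 1 and 2 it lay above all NC and H8 libraries and in replicate 3 below them, and the log2 fold change of H24/NC was 0.16 (SE 0.37, edgeR unadjusted p = 0.668). As COX4I2 overlaps BCL2L1 on the other strand along its whole length, and the strandedness of the counting is not given in the sources used here, reads of the pair may not be told apart. Of the 103 members, 53 overlap another gene, 43 on the opposite strand and 16 on the same strand, some on both. Among them are NDUFB9, NDUFB1, ATP5PF, COX6C, CYC1, COX7A1 and COX6A1, whose reads may be shared in the same way. COX4I1 had log2 fold changes of 0.17 in H24/NC and 0.10 in H8/NC, neither past the test. COX7A1, the isoform of subunit 7A found in heart and muscle, was at 10.5, 12.4 and 10.9 FPKM in NC, 12.8, 13.6 and 13.6 FPKM in H8 and 10.9, 14.9 and 8.79 FPKM in H24. Its H8 values were all above NC, by a log2 fold change of 0.38 (SE 0.16, edgeR unadjusted p = 0.0502), and its H24 values overlapped those of NC. COX7A2, the isoform of most other tissues, had all H24 values (31.3, 36.4 and 39.1 FPKM) below those of NC (43.8, 40.5 and 42.8 FPKM), with a log2 fold change of -0.27 (SE 0.22, edgeR unadjusted p = 0.251). ATP5MC1, ATP5MC2 and ATP5MC3, which encode the same subunit c of the ATP synthase ring, had log2 fold changes of 0.55, -0.06 and 0.19 in H24/NC, none past the test.

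**Figure D2:**
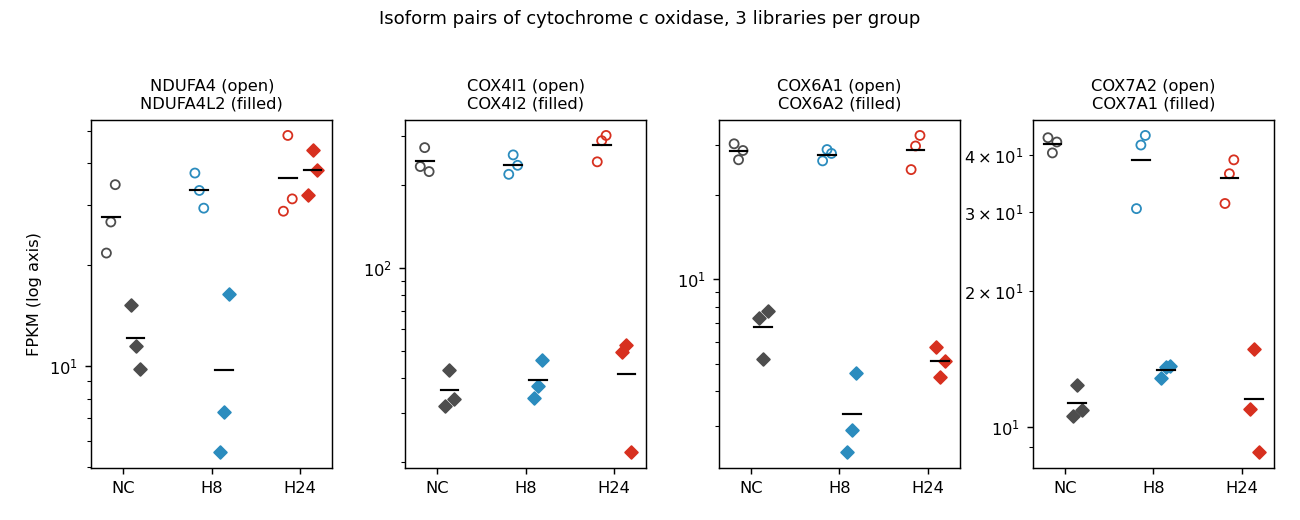
Points are FPKM on a log axis in the 3 libraries of each group and bars are group means, with the general isoform open and the alternative isoform filled. NDUFA4L2 reaches the level of NDUFA4 in H24 (32.3 to 43.9 FPKM against 28.8 to 48.5 FPKM), while COX6A2 is lowest in H8 (2.43 to 4.65 FPKM).

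In the remaining subunits, differences between H24 and NC were small and went in both directions. The values of 4 members lay above NC in every H24 library (NDUFA4L2, NDUFA1, COX17 and ATP6V0E1) and those of 9 lay below (NDUFB9, NDUFS5, NDUFAB1, NDUFV1, NDUFB11, COX7A2, ATP5PO, ATP5PF and PPA2), against 12.8% and 7.80% of all genes tested. Complex I, which holds 44 of the 103 members, supplied 5 of the 9, namely 4 accessory subunits and NDUFV1, the subunit that binds NADH. NDUFB9 was at 90.5, 72.5 and 75.6 FPKM in NC and at 53.9, 61.7 and 59.8 FPKM in H24, the lowest p of complex I (log2 fold change -0.46, SE 0.20, edgeR unadjusted p = 0.0512). By complex, the median log2 fold change was -0.01 in complex I, -0.10 in complex II, 0.00 in complex III, 0.15 in complex IV and 0.00 in complex V. Of the 23 members of complex IV, 18 were above 0, and without NDUFA4L2 none of complexes I to V passed the test in either direction. ATP4A, the other member past the unadjusted threshold, is a subunit of the acid pump of the stomach and no part of the respiratory chain. It was at 0.539, 0.428 and 0.159 FPKM in NC and at 0.0649, 0.159 and 0.0191 FPKM in H24, with as few as 4 counts in a library, and the groups overlapped (log2 fold change -2.20, SE 0.92, edgeR unadjusted p = 0.0471, adjusted p = 0.352). Without NC replicate 1 or NC replicate 2 no member was lower at that threshold, and without H24 replicate 2 there were 2 (5.18% of all genes).

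The count of higher members rested on the libraries used. It was 4 without H24 replicate 1 (11.8% of all genes) and 3 without H24 replicate 2 (14.0% of all genes), in place of 1. The median moved to -0.11 without H24 replicate 3, with 69 members below 0 in place of 48, and the median of all genes was then -0.02. The median of the nuclear members of complexes I to V, as log2 ratios to the NC mean, was -0.21, -0.01 and 0.20 in H24 replicates 1 to 3, which spanned more than the -0.06 to 0.11 of the NC libraries. The highest of these values belonged to the library with the highest macrophage sum (3321 FPKM), and the lowest smooth muscle sum (1827 FPKM), whose part in the result was not tested. In that library UQCRQ, COX5A and NDUFS3, subunits of complexes III, IV and I, reached 22.9, 31.1 and 8.81 FPKM, above every other library. These 3 genes were singled out after their values were seen.

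**Figure D3:**
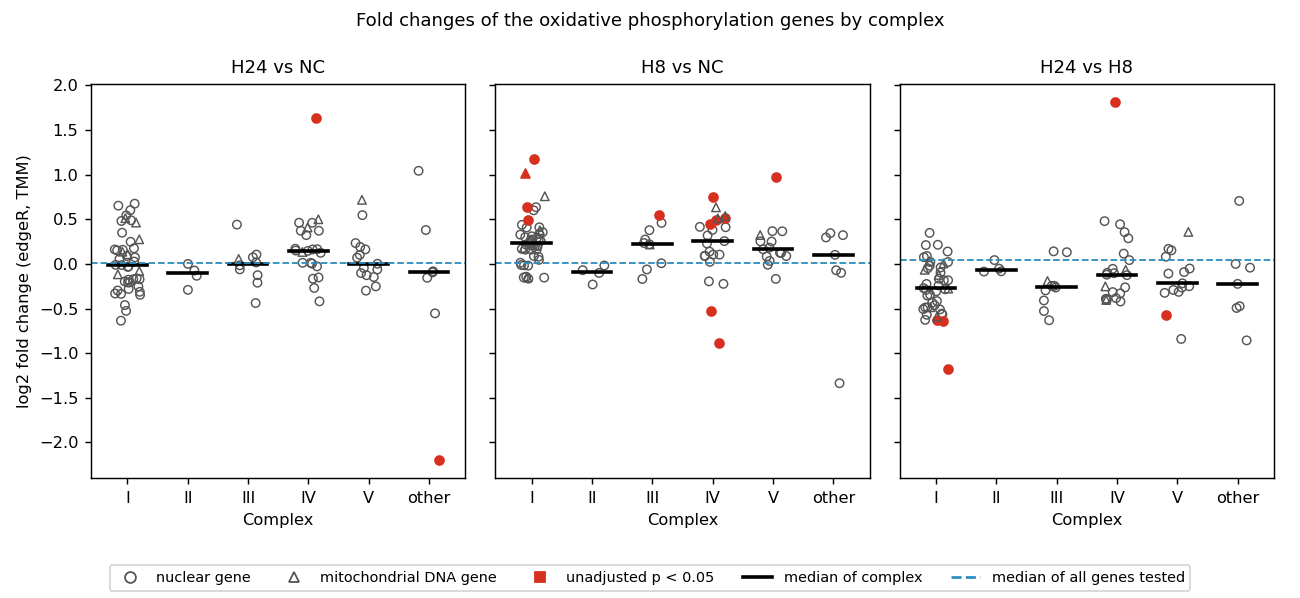
Points are members, placed by complex, with their edgeR log2 fold change (TMM normalization), red marks an unadjusted p under 0.05, triangles are mitochondrially encoded, black bars are medians per complex, and the dashed line is the median of all genes tested. In H8/NC the medians of complexes I, III, IV and V lie at 0.16 to 0.26 and that of complex II at -0.09, and NDUFA4L2 stands alone at the top in both comparisons with H24.

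The H8/NC comparison sets 8 weeks of the high-fat diet against the 24-week controls. Here the members lay slightly above the bulk of the genes: the median log2 fold change was 0.22 against 0.01 over all 14336 genes tested, and 80 of 103 members (51.5% of all genes) were above 0. The shift appeared in complex I (median 0.24), complex III (0.23), complex IV (0.26) and complex V (0.16) and was absent from complex II (-0.09). By edgeR's quasi-likelihood test, 10 members were higher and 2 lower at an unadjusted p under 0.05, or 9.71% and 1.94% of the members. Over all genes, 8.89% were higher and 5.92% lower, so the share of higher members was near the background. Past the paper's thresholds were 2 members, NDUFA3 and ND3, against 5.11% of all genes upward, and none downward against 2.27%. No member had an adjusted p under 0.05 (0.0279% of all genes did), and neither DESeq2, which called 825 of 14336 genes (5.75%), nor limma on log2(FPKM + 0.1), which called 0.181%, called any. The size of the median depends on the scaling between libraries. With total-count scaling it was 0.06, while the median of all genes moved to -0.13, so that the distance between the members and all genes was 0.20 on either scale. With limma on log2(FPKM + 0.1) the members' median was 0.09 and that of all genes -0.12.

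Of the 10 higher members, COX17 is an assembly factor, ND3 a core subunit and the other 8 small nuclear subunits. NDUFA3, of the membrane arm of complex I, was at 4.80, 3.99 and 2.59 FPKM in NC and at 9.30, 7.19 and 6.89 FPKM in H8, with no overlap (log2 fold change 1.17, SE 0.39, edgeR unadjusted p = 0.0184, adjusted p = 0.255). NDUFA3 lies wholly within TFPT on the opposite strand, with which its reads may be shared. ATP5ME, the e subunit of ATP synthase, was at 16.0, 16.9 and 12.2 FPKM in NC and at 22.9, 35.3 and 21.7 FPKM in H8, again without overlap (log2 fold change 0.98, SE 0.31, edgeR unadjusted p = 0.0153, adjusted p = 0.241). UQCR10, a small subunit of complex III, was at 19.2, 16.4 and 21.0 FPKM in NC and at 24.4, 25.4 and 24.9 FPKM in H8 (log2 fold change 0.55, SE 0.20, edgeR unadjusted p = 0.0263, adjusted p = 0.277). All 3 H8 values of UQCR10 lay above the other 6 libraries. COX17, the copper chaperone that supplies complex IV, had a log2 fold change of 0.75 and overlaps POPDC2 on the same strand. The others were NDUFA1 (0.64), NDUFB6 (0.49), COX7B (0.52), COX5B (0.49), COX6C (0.45) and the mitochondrially encoded ND3 (1.02). ND3 was at 140, 198 and 112 FPKM in NC and at 172, 437 and 203 FPKM in H8, where the groups overlapped and replicate 2 was far above the rest. Values of 8 members lay above NC in all 3 H8 libraries and those of 4 lay below, against 6.91% and 15.9% of all genes.

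Of the 30 nuclear accessory subunits of complex I, 27 were above 0 in H8/NC (51.5% of all genes), with a median log2 fold change of 0.27. The 7 nuclear core subunits did not share the shift, with a median of -0.01, 3 above 0 and 4 below. The 7 mitochondrially encoded core subunits had a median of 0.21. These groups were formed after the values were seen, and no test was run on them. The values ran alongside transcript length. From the ratio of count to FPKM, which for a given library is proportional to transcript length, the nuclear members of complexes I to V had a median length of 0.482 times that of the median gene. Across these 84 members, which share libraries, Spearman's rho between length and the log2 fold change of H8/NC was -0.49, and it was -0.17 in H24/NC. The 42 shorter members had a median of 0.27 and the 42 longer ones 0.09 in H8/NC. Among the genes outside the term, the 627 that were shorter than the lower quartile of the members had a median of 0.12, compared with 0.32 for the 21 members below that quartile and 0.02 for all 13277 other genes with a length. Short genes outside the term thus also lay above the bulk of the genes, by less than the short members did, and the part of transcript length in the result was not tested.

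**Figure D4:**
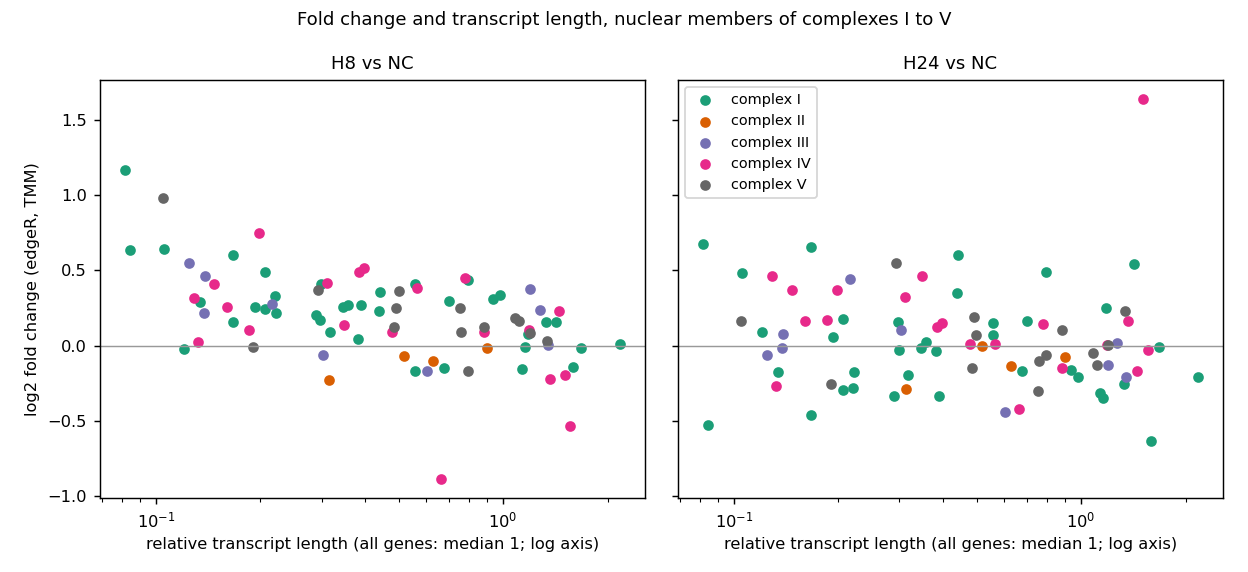
Each point is a nuclear member of complexes I to V, placed by relative transcript length (log axis, the median gene at 1) and log2 fold change. In H8/NC (Spearman's rho -0.49) the highest value, 1.17 for NDUFA3, is at the short end and the lowest, -0.88 for COX6A2, is nearer the middle, and in H24/NC (rho -0.17) NDUFA4L2 is the high point at 1.64.

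The 4 genes of succinate dehydrogenase, complex II, were all below 0 in H8/NC, and none passed the test. SDHA, the flavoprotein, was at 56.8, 51.5 and 54.9 FPKM in NC, 47.0, 36.9 and 55.2 FPKM in H8 and 43.1, 52.6 and 54.9 FPKM in H24. SDHB, the iron-sulphur subunit, was at 37.7, 30.9 and 37.3 FPKM in NC, 32.8, 25.8 and 33.3 FPKM in H8 and 31.1, 30.5 and 45.6 FPKM in H24. The groups overlapped for these genes, and H8 replicate 2 was the lowest library for each in FPKM. SDHC, a membrane anchor, had every H8 value (14.6, 14.0 and 15.0 FPKM) just below the lowest NC value of 15.3 FPKM. With TMM scaling, which FPKM lacks, its log2 fold change was -0.02. SDHD, the other anchor, had log2 fold changes of -0.23 in H8/NC and -0.29 in H24/NC (edgeR unadjusted p = 0.244 and 0.257).

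Complex III and complex V gave 1 call each in H8/NC, UQCR10 and ATP5ME. In complex III the core proteins UQCRC1 and UQCRC2 had log2 fold changes of 0.02 and -0.44 in H24/NC, and UQCRC2 had the lowest p of the complex there (edgeR unadjusted p = 0.0916). UQCRC2 was at 35.0, 27.0 and 36.0 FPKM in NC, 25.6, 26.2 and 27.1 FPKM in H8 and 24.4, 19.9 and 29.1 FPKM in H24, and the NC range was overlapped by both diet groups. CYC1, the cytochrome c1 of the complex, was slightly lower in FPKM in every H8 library (43.3, 40.4 and 45.2 FPKM) than in NC (47.9, 49.5 and 50.6 FPKM). Its log2 fold change after TMM scaling was -0.06, and it spread from 36.0 to 67.8 FPKM in H24. The catalytic subunits of ATP synthase stayed close to the controls, ATP5F1A with log2 fold changes of -0.10 in H24/NC and 0.09 in H8/NC and ATP5F1B with 0.00 and 0.08. ATP5PF was at 15.6, 12.1 and 12.1 FPKM in NC, 13.2, 15.6 and 13.9 FPKM in H8 and 11.9, 11.7 and 9.17 FPKM in H24, below all other libraries in H24.

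The members outside the complexes were given apart. PPA2, the mitochondrial pyrophosphatase, was at 6.71, 6.69 and 6.58 FPKM in NC and 5.73, 3.90 and 4.24 FPKM in H24, without overlap (log2 fold change -0.55, SE 0.27, edgeR unadjusted p = 0.0829), and its cytosolic counterpart PPA1 had a log2 fold change of 0.38 (edgeR unadjusted p = 0.327). ATP6V0E1, of the lysosomal pump, was at 25.9, 29.7 and 28.0 FPKM in NC, 30.0, 31.5 and 31.8 FPKM in H8 and 35.0, 34.5 and 105 FPKM in H24. Each group lay above the one before it, and the highest value by far was that of H24 replicate 3 (H24/NC log2 fold change 1.04, SE 0.46, edgeR unadjusted p = 0.059). Without that library the log2 fold change was 0.29 (edgeR unadjusted p = 0.182).

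Both members that were lower in H8 belonged to complex IV. COX6A2, the isoform of subunit 6A of heart and skeletal muscle, was at 7.31, 5.21 and 7.72 FPKM in NC, at 2.43, 2.91 and 4.65 FPKM in H8 and at 5.73, 4.48 and 5.14 FPKM in H24. Every H8 value was below every NC value (log2 fold change -0.88, SE 0.28, edgeR unadjusted p = 0.0155, adjusted p = 0.242). Its general isoform COX6A1 was at 30.4, 26.7 and 28.8 FPKM in NC and 26.4, 29.0 and 28.1 FPKM in H8, and COX6A2 made up 19.0% ± 2.43 (SD, n = 3) of the summed FPKM of the pair in NC and 10.6% ± 3.16 in H8, with no overlap (exact permutation test, two-sided p = 0.1, the smallest possible). COX6A2 overlaps ITGAM, a macrophage gene on the opposite strand, by 241 bases, and ITGAM was at 0.286 to 0.394 FPKM in NC, 0.312 to 2.81 FPKM in H8 and 3.37 to 35.2 FPKM in H24. COX6A1 overlaps GATC on the same strand by 9597 bases and TRIAP1 on the opposite strand. The part of shared reads was not tested. COX15, which makes the heme A of complex IV, was at 4.49, 3.38 and 4.19 FPKM in NC, 2.91, 1.91 and 2.81 FPKM in H8 and 4.48, 3.19 and 4.34 FPKM in H24. It was lower in every H8 library than in every NC and H24 library (H8/NC log2 fold change -0.53, SE 0.19, edgeR unadjusted p = 0.0275, adjusted p = 0.280), and it overlaps ENTPD7 on the opposite strand.

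H8 replicate 2 carried much of the shift. The median log2 ratio to the NC mean over the nuclear members of complexes I to V was 0.00, 0.34 and 0.15 in H8 replicates 1 to 3, compared with 0.11, -0.05 and -0.06 in NC. Without H8 replicate 2 the median over all members was 0.08, in place of 0.22, and 2 members were higher in place of 10 (6.82% of all genes). The count of higher members was also 2 without NC replicate 3 (6.27% of all genes), 6 without NC replicate 1 (7.55%) and 5 without H8 replicate 3 (9.06%), and it was 14 without H8 replicate 1 (7.34%). The share of members was thus below the background without H8 replicate 2 or NC replicate 3, at 1.94%, and above it without H8 replicate 1, at 13.6%. H8 replicate 2 had the lowest summed smooth muscle markers of its group (10952 FPKM) and the lowest macrophage markers (56.4 FPKM), and summed markers of fibroblasts were 4569 to 7357 FPKM in H8, highest in replicate 2, against 2948 to 3747 FPKM in NC. Of 6 fibroblast markers 3 were higher in H8/NC at an unadjusted p under 0.05 (8.89% of all genes), and none of the 6 was listed at 0. The 3 were the collagens COL1A1, COL1A2 and COL3A1, which hold most of the summed FPKM. PDGFRA, DCN and LUM had log2 fold changes of 0.87, 0.79 and 0.63 and did not pass (edgeR unadjusted p = 0.0696, 0.0671 and 0.0696). The sum is therefore mainly a collagen level, and the part of these markers in the result was not tested. Markers of adipocytes differed by more. ADIPOQ, the fat hormone adiponectin, was at 4.44, 14.6 and 6.83 FPKM in NC, 0.0954, 0.106 and 0.0789 FPKM in H8 and 7.24, 0.0705 and 0.416 FPKM in H24 (H8/NC log2 fold change -6.39, edgeR adjusted p = 0.0206). PLIN1, the coat protein of fat droplets, was listed at 0 in H8 replicate 3. Of 6 adipocyte markers tested 3 were lower in H8/NC (5.92% of all genes), and of 7 tested 5 were higher in H24/H8 (8.68%), at an unadjusted p under 0.05. The H24/H8 count was 2 without H8 replicate 3, 3 of 6 tested without H24 replicate 1 and 5 without H24 replicate 2. FABP4, the marker with the most FPKM in NC, had a log2 fold change of -0.06 in H8/NC. LPL, at 131 FPKM in H24 replicate 3, had 0.25 in H8/NC, and neither passed the test there. The summed FPKM of the 7 was 110 to 181 in NC, 69.3 to 147 in H8 and 74.6 to 220 in H24. The part of fat tissue in the H8/NC and H24/H8 results was not tested.

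H24/H8 shares its H24 libraries with H24/NC and its H8 libraries with H8/NC, so it is no independent observation. The median over the members was -0.22 against 0.04 over all 14788 genes tested, and 77 members were below 0 (47.0% of all genes) and 26 above (53.0%). By edgeR's quasi-likelihood test, 4 members were lower at an unadjusted p under 0.05 (5.04% of all genes) and NDUFA4L2 was higher (8.68%), and none had an adjusted p under 0.05 (0.0135%). DESeq2 called NDUFA4L2 and NDUFB1 at an adjusted p under 0.05, where it called 738 of 14788 genes (4.99%), and limma on log2(FPKM + 0.1) called none (0.00676%). Past the paper's thresholds were NDUFA4L2 (7.22% of all genes upward) and NDUFB1 (3.05% downward).

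NDUFB1, a small accessory subunit of the membrane arm of complex I, was at 29.7, 45.4 and 33.8 FPKM in H8 and at 17.0, 22.4 and 15.4 FPKM in H24, with NC overlapping both at 30.5, 26.0 and 21.6 FPKM. The H24 and H8 values did not overlap (log2 fold change -1.18, SE 0.34, edgeR unadjusted p = 0.0108, adjusted p = 0.336). NDUFB1 shares 221 bases with CPSF2 on the opposite strand. NDUFS5 and NDUFB9 of complex I (log2 fold changes -0.63 and -0.64) and ATP5PF, a stalk subunit of ATP synthase (-0.57), were the other lower members, each without overlap. Over all members, values of 9 lay below H8 in every H24 library and those of 4 lay above, against 6.31% and 15.5% of all genes. Without H24 replicate 3 the median was -0.32, with 96 of 103 members below 0. Without H8 replicate 2 it was -0.11 with 1 member lower (2.55% of all genes), and with total-count scaling it was -0.02 against 0.24 over all genes. The number of lower members was 2 without H8 replicate 3 (3.80% of all genes) or H24 replicate 1 (5.06%) and 6 without H24 replicate 2 (7.03%).

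The mitochondrially encoded members moved together in most libraries but not within a group. Their median log2 ratio to the NC mean was -0.18, 0.48 and -0.29 in NC replicates 1 to 3, 0.05, 0.80 and 0.24 in H8, and 0.50, -0.50 and 0.49 in H24. In H24 replicates 1 and 3 all 12 were above the NC mean, while in replicate 2 only 3 were. In H8 replicates 1 to 3 the number was 6, 12 and 10. The spread within each group was thus wider than the distance between groups, and none of the 12 had values that separated 2 groups. The median log2 fold change was 0.21 in H24/NC, 0.35 in H8/NC and -0.16 in H24/H8. The last turned positive with total-count scaling (0.08) and limma (0.02), and without H8 replicate 2 (0.15) or H24 replicate 2 (0.02). There was 1 member past the unadjusted threshold in H8/NC (ND3) and none in the other comparisons. Among the ND subunits of complex I, H24/NC ranged from -0.12 for ND5 to 0.51 for ND1. CYTB of complex III was at 1142, 1781 and 1046 FPKM in NC and 1572, 991 and 1664 FPKM in H24. COX1, COX2 and COX3 had log2 fold changes of 0.50, 0.13 and 0.41 in H24/NC and 0.54, 0.51 and 0.63 in H8/NC. ATP8 was at 318, 426 and 325 FPKM in NC and 609, 246 and 943 FPKM in H24 (log2 fold change 0.72, and 0.22 without H24 replicate 3). ATP6, which the rule on names had dropped, had log2 fold changes of 0.17, 0.56 and -0.41 in H24/NC, H8/NC and H24/H8 and overlapped between groups in all of them. Nuclear copies of these sequences exist, and how the authors treated reads with several matches is not given in the sources used here.

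**Figure D5:**
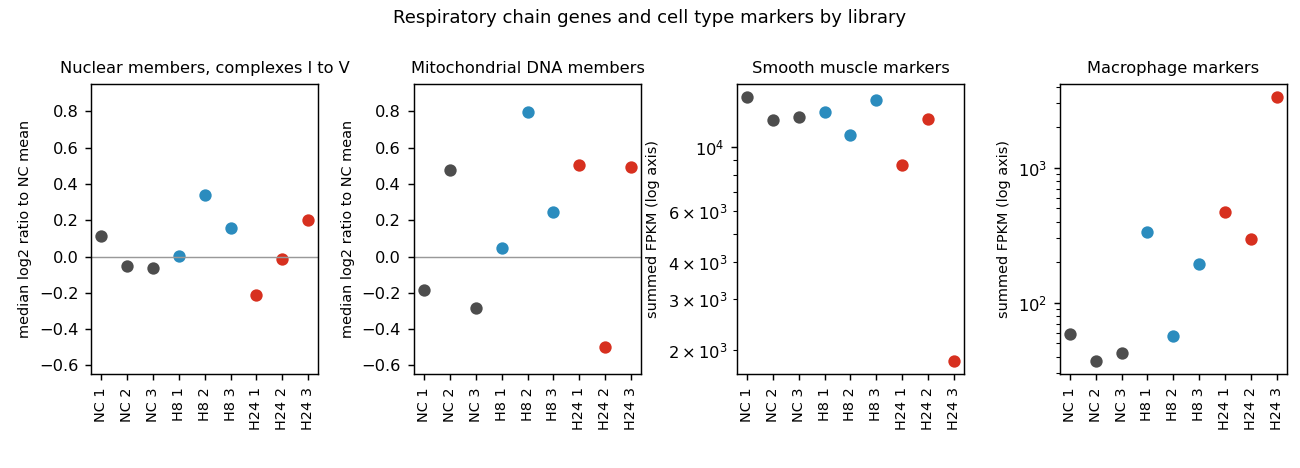
Each point is a library, showing the median log2 ratio to the NC mean for the nuclear members of complexes I to V and for the mitochondrially encoded members, beside the summed FPKM of smooth muscle and macrophage markers on log axes. The mitochondrial medians of H24 split into 0.50, -0.50 and 0.49, and H24 replicate 3 has 1827 FPKM of smooth muscle and 3321 FPKM of macrophage markers.

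The genes that serve the complexes were read from lists kept apart from the members. Of 36 factors that assemble the complexes and were tested, none passed an unadjusted p under 0.05 in H24/NC, while in H8/NC 4 were lower and 1 was higher (8.89% of all genes higher, 5.92% lower). The lower ones numbered 2 without NC replicate 1, NC replicate 3 or H8 replicate 2 and 1 without NC replicate 2. With all libraries the lower ones included TMEM70, needed for ATP synthase, at 35.6, 36.5 and 51.1 FPKM in NC and 21.2, 13.9 and 28.3 FPKM in H8 (log2 fold change -0.84, SE 0.25, edgeR unadjusted p = 0.012, adjusted p = 0.233), and FOXRED1, a complex I factor (-0.66). The higher one was UQCC2, which assembles complex III (0.57), and it did not pass when any single library was left out. The median of the assembly factors was thus -0.11 in H8/NC, opposite in sign to that of the members.

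Of the 14 regulators of mitochondrial biogenesis that could be tested, of 16 in the list, none passed in H24/NC and 1 passed in each direction in H8/NC. This is 7.14% each way, near the 5.92% of all genes that were lower and the 8.89% that were higher. TWNK, the helicase of mitochondrial DNA, was lower (log2 fold change -0.77), and PPRC1, a coactivator of the PGC-1 family, was higher (0.64). With a library left out, PPRC1 passed only without H8 replicate 3, and TWNK did not pass without NC replicate 2 or NC replicate 3. PPARGC1B, another coactivator of that family, was at 1.34, 1.49 and 1.39 FPKM in NC and 0.964, 0.376 and 0.896 FPKM in H8, without overlap (log2 fold change -0.80, edgeR unadjusted p = 0.058). None of 16 citric acid cycle genes passed in any comparison at an unadjusted p under 0.05 in edgeR. Of 16 fatty acid oxidation genes, ECHS1, the enoyl-CoA hydratase, was lower in H24/NC (-0.58) and H8/NC (-0.48). ACADM, a medium-chain dehydrogenase, was higher in H8/NC (0.66) and ACAA2, a thiolase, was lower in H24/H8 (-0.63). Each call is 6.25% of the list. Over all genes, 2.84% were lower in H24/NC, 5.92% lower and 8.89% higher in H8/NC, and 5.04% lower in H24/H8. With a library left out of H8/NC, ECHS1 passed only without H8 replicate 2, and ACADM only without NC replicate 3 or H8 replicate 3. ECHS1 in H24/NC did not pass without NC replicate 1 or NC replicate 2, nor did ACAA2 in H24/H8 without H8 replicate 1 or H8 replicate 3.

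Among 8 tested carriers and uncoupling genes, UCP2, a carrier of the mitochondrial inner membrane that is abundant in immune cells, was at 1.95, 1.92 and 0.624 FPKM in NC, 2.61, 1.42 and 1.91 FPKM in H8 and 9.76, 7.56 and 97.6 FPKM in H24. All H24 values exceeded all others, and H24 replicate 3 stood far above (H24/NC log2 fold change 4.66, SE 1.16, edgeR unadjusted p = 0.005, adjusted p = 0.156). Without H24 replicate 3 the log2 fold change of UCP2 was 2.5 (edgeR unadjusted p = 0.00158, adjusted p = 0.0653). H24 replicate 3 was highest both in the macrophage sum (3321 FPKM) and in UCP2. H8 replicate 1 (sum 333, UCP2 2.61 FPKM) and H24 replicate 2 (sum 298, UCP2 7.56 FPKM) ranked in opposite orders. These libraries were singled out after their values were seen. All 14 macrophage markers were higher in H24/NC at an unadjusted p under 0.05, with a median log2 fold change of 5.01. Without H24 replicate 3 all 13 that could be tested were higher, with a median of 3.01, and the part of those cells in the result was not tested. SLC25A5, the ADP/ATP carrier of proliferating tissues, was higher in H8/NC (0.60, edgeR unadjusted p = 0.015), and ATP5IF1, the inhibitor of ATP synthase hydrolysis, was lower in H24/H8 (-0.64, edgeR unadjusted p = 0.025).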

How the data were processed

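RNA-seq of 9 aortic libraries was used, 3 per group as the labels give them. The authors mapped paired-end reads to Sscrofa11.1 with HISAT 2.0 and computed the deposited FPKM with StringTie 1.3.0. The submitters' processing notes also name Bowtie 0.12.2 and a mouse build, which were not used here. The deposited table also holds expected counts, estimated as whole numbers and not normalized. How these were derived is not given in the sources used here. The labels' RNA protocol speaks of an adipose type, while tissue labels and paper give the aorta. Of the members, 24 had no name in the table: 12 were named by gene ID, 11 by RefSeq (Sscrofa11.1) and 1 from its description.

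Counts were compared with edgeR 4.0.16 (R 4.3.3, quasi-likelihood test, TMM, dispersion trend, two-sided) between pairs of groups, over genes with a mean of at least 0.1 FPKM in the 6 libraries, with Benjamini-Hochberg adjustment over all genes tested. Each library is a separate pig in NC and H24 per the paper. For H8 nothing states this, and p-values then measure the spread between these samples. Calls used an unadjusted p of 0.05, the threshold of the paper, beside the adjusted one. FPKM values, their sums and shares, and overlaps between groups were used as deposited, without TMM scaling. The members and gene lists were chosen with earlier results of these data known. Genes named in the text were the up to 3 members per complex with the smallest p in each comparison, together with mitochondrially encoded, isoform, succinate dehydrogenase, extreme and threshold-passing members. Up to 3 genes were named for other lists. Those whose groups do not overlap, and genes called by other tools, were named after their values were seen. Relative transcript length was the ratio of count to FPKM, in libraries with at least 50 counts.

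Alternatives were other scalings, filters and fits, DESeq2 1.42.0, limma 3.58.1 on log2(FPKM + 0.1) and log2(FPKM + 1), and each replicate left out in turn. In simulated data for H24/NC with 200 of 14823 genes changed by a log2 fold change of 1, 46% passed the unadjusted threshold in the right direction and 0 passed the adjusted one. The floors cover counting error only. SE values come from the edgeR fits and SD values from the libraries of a group, so both include the spread between libraries. The values of 1 member are not reported here.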

Additional observations from a re-analysis of the deposited data

How the results depend on the processing

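No called result reversed under any alternative. The medians over all members held their sign, except that H24/NC, at 0.01, became -0.01 with the replicate block, with mitochondrially encoded genes left out before scaling (45 members above 0 and 46 below) or without NC replicate 3, and -0.11 without H24 replicate 3. By setting, total-count scaling gave a median of 0.0639 and 3 higher members in H8/NC (5.92% of all genes). In H24/H8 it gave a median of -0.0215, 1 lower (2.83% of all genes) and 2 higher members (12.4%) and 1 past the paper's thresholds. RLE scaling left 1 member past those thresholds in H8/NC. A mean of at least 1 FPKM gave 0 lower members (2.78% of all genes) and 1 past the thresholds in H24/NC, as ATP4A was not tested. It gave 2 lower in H24/H8 (5.30%). All 9 libraries in one fit gave 3 lower (3.95% of all genes) and 2 higher (12.4%) in H24/NC. The same fit gave 4 higher (5.08%) and 1 past the thresholds in H8/NC, and 2 higher (12.0%) in H24/H8. DESeq2 gave 3 lower (4.21% of all genes), 2 higher (12.1%) and 1 adjusted call (6.70%) in H24/NC and 2 adjusted calls (4.99%) in H24/H8. Limma on log2(FPKM + 0.1) gave 2 higher in H24/NC (9.50% of all genes) and 5 higher in H8/NC (5.39%). In H24/H8 it gave 1 lower (3.53%), 1 past the thresholds and a median of -0.0377. Limma on log2(FPKM + 1) gave the same counts and a median of -0.0363 in H24/H8, with 1 past the thresholds in H24/NC and 0 in H8/NC. Over all genes and these settings, 714 to 1600 passed the thresholds upward and 141 to 314 downward in H24/NC. The counts were 202 to 830 and 141 to 505 in H8/NC, and 517 to 1447 and 177 to 580 in H24/H8. The cause of the differences between settings was not tested.

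Leaving out a replicate gave, for H24/NC, 0 to 2 lower, 1 to 4 higher, 1 to 4 past the thresholds and 0 to 1 adjusted calls. Over all genes, 1.42% to 5.18% were then lower, 7.08% to 14.0% higher and 0.00% to 2.10% called after adjustment. Past the thresholds were 946 to 1795 genes upward and 137 to 456 downward. For H8/NC, leaving out a replicate gave 1 to 3 lower, 2 to 14 higher and 1 to 5 past the thresholds. Over all genes, 3.84% to 6.47% were lower, 6.27% to 9.06% higher, and 569 to 796 passed the thresholds upward and 251 to 448 downward. For H24/H8 it gave 1 to 6 lower and 1 to 2 past the thresholds. Over all genes, 2.55% to 7.03% were lower there, and 547 to 1407 passed the thresholds upward and 248 to 684 downward. The count past the thresholds was highest without H24 replicate 2 in H24/NC (4) and without NC replicate 2 (5) or H8 replicate 3 (4) in H8/NC. It was 1 without NC replicate 1, NC replicate 2 or H24 replicate 3 in H24/NC, without NC replicate 3 or H8 replicate 2 in H8/NC, and without H8 replicate 2 in H24/H8. The count of lower members in H8/NC was 1 without NC replicate 1, NC replicate 3 or H8 replicate 2.

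Deviations of same-numbered libraries correlated at -0.05 to 0.07, and those of differently numbered libraries at -0.13 to 0.13. With 3 libraries per group, these values cannot show whether the replicate numbers pair the samples. With the replicate block, 1 member passed the thresholds in H8/NC and 1 was lower in H24/H8, and no other count left 1.5 times its value. The corrected list, with mitochondrial ATP6 and without V-ATPase subunits, which was chosen after seeing the data, changed no call. With 3 libraries per group, a small shift in most members could not be called gene by gene.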
